A study of Mus musculus with 54 samples.

Results

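The Nat8 and Cml cluster is a group of neighbouring mouse genes for camello-like acetyltransferases, and 5 of the 24346 genes in the expression table (Nat8, Cml1, Cml2, Cml3 and Cml5) were taken by their names. They were picked with the fall of the cluster without Bmal1 already known, so the levels of these 5 genes in KO and RE against WT are given as a description, with no test. Whole-liver RNA was sequenced from 54 mouse livers, with 3 livers in each of 18 groups. WT mice express Bmal1 (gene symbol Arntl), the activator of the circadian clock, in all tissues. KO mice carry a floxed STOP in Bmal1. RE mice carry that same allele together with Syt10-Cre, which was used to restore Bmal1 in the suprachiasmatic nucleus (seat of the central clock in the brain), so that liver cells of RE mice are meant to lack it. Livers were taken at ZT0, ZT4, ZT8, ZT12, ZT16 and ZT20 (zeitgeber time, in hours after lights on). The age, sex and strain of the mice, and whether Syt10-Cre acted in cells outside the suprachiasmatic nucleus, are not stated in the labels.

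Camello-like proteins are small enzymes anchored in the membrane of the endoplasmic reticulum that move an acetyl group from acetyl-CoA to an amino group. Nat8 acetylates cysteine S-conjugates, the last step in turning glutathione conjugates of foreign compounds into mercapturic acids that leave in urine. Members of the family have also been described as lysine acetyltransferases that act on membrane and secreted proteins as they fold. Kidney and liver are the main organs that express the family. Acetyl-CoA for these reactions enters the endoplasmic reticulum through the transporter Slc33a1.

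On chromosome 6 of GRCm38.p6 (the RefSeq assembly that corresponds to mm10) the 5 genes lie within 155.3 kb, all on the minus strand. Cml3 (RefSeq name Nat8f3) lies at chr6:85760631-85765767, Cml5 (Nat8f5) at chr6:85817218-85820972, Nat8 at chr6:85830387-85836857, Cml2 (Nat8f2) at chr6:85865422-85869137 and Cml1 (Nat8f1) at chr6:85910154-85915914. Beside or among them lie 3 further family genes with a row of their own, namely Gm4477 (Nat8f7, chr6:85706707-85708885), Gm11128 (Nat8f6, chr6:85808044-85809877) and 1700019G17Rik (Nat8f4, chr6:85899050-85909315). These relatives were not used to choose the 5 genes. Cml3 is a RefSeq synonym of Nat8f3, Nat8f6 and Nat8f7, and the row was taken as Nat8f3 because the others have rows of their own.

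The stretches of 150 bases just before the RefSeq starts are shown because neighbouring genes of the cluster had very different levels in KO and RE livers. Nat8 has 2 RefSeq starts, of which the second lies inside the gene. The lines below run 5′ to 3′ toward the start on the minus strand, at chr6:85832280-85832429 for Nat8 (second start), chr6:85820973-85821122 for Cml5, chr6:85708562-85708711 for Gm4477, chr6:85869138-85869287 for Cml2 and chr6:85915633-85915782 for Cml1. Capitals mark matches to the motifs that were searched.
Nat8: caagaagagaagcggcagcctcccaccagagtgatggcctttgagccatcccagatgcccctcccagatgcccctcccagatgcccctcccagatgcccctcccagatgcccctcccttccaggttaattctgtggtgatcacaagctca
Cml5: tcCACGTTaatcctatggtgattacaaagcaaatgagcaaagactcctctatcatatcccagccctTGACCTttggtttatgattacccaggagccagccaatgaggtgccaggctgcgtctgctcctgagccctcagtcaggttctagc
Gm4477: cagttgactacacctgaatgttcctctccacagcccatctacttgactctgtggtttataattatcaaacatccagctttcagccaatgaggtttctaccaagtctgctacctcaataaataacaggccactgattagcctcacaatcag
Cml2: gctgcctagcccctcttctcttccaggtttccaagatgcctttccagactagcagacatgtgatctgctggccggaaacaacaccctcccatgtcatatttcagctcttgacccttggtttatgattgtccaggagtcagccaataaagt
Cml1: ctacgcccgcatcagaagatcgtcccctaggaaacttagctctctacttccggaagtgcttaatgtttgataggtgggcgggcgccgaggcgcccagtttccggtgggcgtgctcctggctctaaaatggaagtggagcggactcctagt

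Each window (250 bases before to 50 after the start) was searched on both strands for CACGTG (the E-box bound by Bmal1 with its partner), the variant CACGTT, the D-box letters TTATGNAA or TTACGTAA, AGGTCA (the site letters of REV-ERB receptors), TTCNNNGAA (STAT5), GTTAATNAT (HNF1) and CAAAGTCCA (HNF4). Cml5 held CACGTT 148 bases before its start and AGGTCA, read as TGACCT on this strand, 84 bases before it. These letters occur in 4.68% and 16.3% of 32851 RefSeq windows of the same length. Nat8 held the HNF4 letters just past its second start, which 0.475% of windows hold. The windows of both starts of 1700019G17Rik, whose level was close to WT, also held AGGTCA, 244 and 51 bases before the start. None of the searched letters were found in the windows of Cml1, Cml2, Cml3, Gm4477, Gm11128 or the first start of Nat8. The E-box CACGTG, held by 7.15% of all windows, was in none of the windows of the family. The longest alignments between windows joined Gm11128 and Gm4477 (292 bases, 97.9% identity) and Cml3 and the first start of Nat8 (206 bases, 98.5%). Cml5 and Cml2 aligned over 70 bases at 82.9% identity, and Cml5 and Gm4477 over 63 bases at 84.1%. A match here is a description of letters and no measure of binding.

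**Figure D1:**
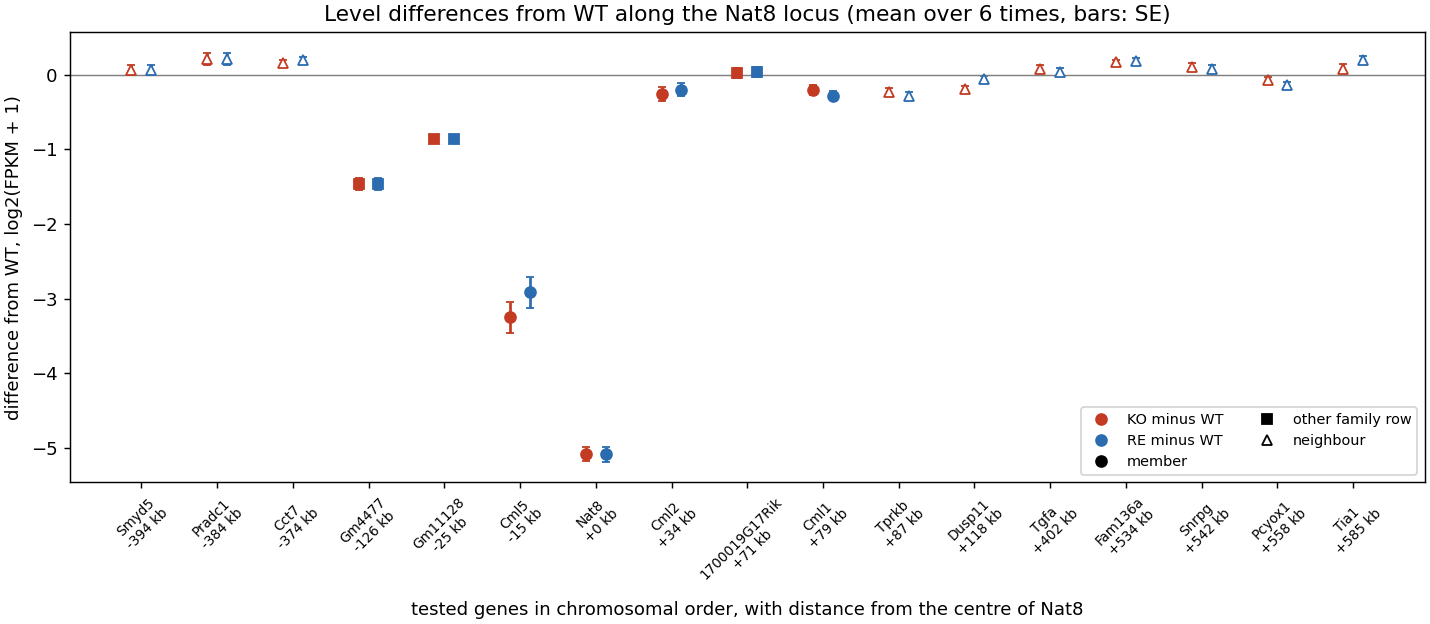
Difference from WT in mean log2(FPKM + 1) over the 6 times (vertical axis, error bars SE) for the tested genes in chromosomal order (evenly spaced, labelled with kb from the centre of Nat8), in KO (red) and RE (blue); circles are members, squares other family genes and open triangles neighbours. Nat8 lies at -5.08 and Cml5 at -3.25 in KO, while 1700019G17Rik, Cml1, Cml2 and the neighbours lie near 0. Tprkb, which overlaps Cml1, is also drawn as an open triangle.

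Expression is given in FPKM, which corrects the fragments of a gene for transcript length and library size, so levels of different genes can be set side by side. The table holds no read counts and the depth of each library is unknown. Total FPKM per library ran from 572995 to 751399. Of 8 hepatocyte markers 7 averaged 1 FPKM or more in WT, and 8 did so in both other genotypes. Alb was listed at 0 in 21 libraries, all WT livers among them. In the KO and RE libraries where it was not 0, it ran from 9890 to 19951 FPKM. The cause was not tested. A difference in processing between WT and the other livers could not be told apart from genotype, which limits every comparison with WT. Of 8 markers of kidney proximal tubule, another site of Nat8, none reached 1 FPKM and their sum was at most 0.475 FPKM in any library. Summed intestinal markers ran from 76.9 to 190 FPKM in WT, 39.9 to 115 in KO and 16.3 to 150 in RE. Bile duct markers had a median sum of 27.5 FPKM (WT), 68.9 (KO) and 64.2 (RE), and that of pancreas markers 22.9, 63.6 and 72.6. Of 8 intestinal markers only 2 averaged 1 FPKM or more in WT, and 1 in KO and in RE. Of 5 pancreas markers only 1 did so in each genotype, and Pnlip and Ctrb1 were 0 in all WT livers. The intestinal and pancreas sums thus rest on 1 or 2 genes and do not show that such cells were present. Of 5 bile duct markers 4 did so in WT, and 3 in KO and in RE. The part of these cells in the results was not tested. There were 2 libraries that stood apart. In WT ZT0 liver 0 the gut transcript Rbp2 was 55.9 FPKM against at most 3.54 elsewhere, and RE ZT16 liver 2 differed from its group mates with an SD of 0.58 (log2 over genes) against 0.22 to 0.45 in the other 53. Arntl itself, read over its whole gene, ran from 0.202 to 10.3 FPKM in WT, 9.76 to 14.2 in KO and 7.60 to 15.5 in RE, which checks nothing of the STOP allele.

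Nat8 was nearly silent in KO and RE livers. In WT it ran from 25 to 99.8 FPKM (lowest and highest of 18 livers, median 57.1). In KO it ran from 0.200 to 1.65 FPKM (median 0.481) and in RE from 0.107 to 1.16 (median 0.610). No KO or RE liver came within the WT range, and KO and RE overlapped almost throughout. WT livers averaged 57.7 ± 20.7 FPKM, KO livers 0.663 ± 0.387 and RE livers 0.647 ± 0.313 (SD, n = 18 each). The ratio of the WT mean to the KO mean was 87.0 over all times, from 50.4 at ZT4 to 185 at ZT20, and against RE it was 89.2, from 37.0 at ZT4 to 202 at ZT16. On the log2(FPKM + 1) scale the difference was -5.08 in KO and -5.09 in RE, the lowest of 10932 tested genes in both comparisons, which share the WT livers. In whole liver, fewer cells that express a gene and less RNA per cell cannot be told apart.

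Cml5, the member nearest to Nat8, was also far lower, though less so. WT livers held 16.1 to 106 FPKM (median 39.2), KO livers 1.05 to 7.80 (median 3.88) and RE livers 0.292 to 15.0 (median 4.73). The highest RE liver lay just under the lowest WT liver. Averages were 50.3 ± 30.9 FPKM (WT), 3.97 ± 2.16 (KO) and 6.11 ± 4.46 (RE; SD, n = 18 each), a ratio of 12.7 against KO and 8.22 against RE. The log2(FPKM + 1) differences were -3.25 and -2.92, rank 5 from the lowest of all tested genes in KO. Between Nat8 and Cml5 in that order stood Tff3 (-3.44), Serpina1e (-3.39) and Serpina4-ps1 (-3.38), and next after Cml5 came Mme (-2.77). All 18 KO livers lay below all 18 WT livers in Nat8 and Cml5 among the 4 tested members. That holds for 0.732% of tested genes against KO and 0.558% against RE; the members were picked on this contrast, so nothing is read from it.

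Cml1 and Cml2, the most abundant members, kept most of their level. Cml1 ran from 260 to 413 FPKM in WT, 200 to 420 in KO and 175 to 383 in RE (means 328 ± 37.1, 287 ± 49.3 and 273 ± 48.6, SD, n = 18 each). Cml2 ran from 291 to 485 FPKM in WT, 220 to 414 in KO and 107 to 475 in RE (means 401 ± 52.6, 337 ± 54 and 360 ± 76.5). The genotypes overlapped broadly in both genes. The log2(FPKM + 1) difference was -0.20 in KO and -0.28 in RE for Cml1, and -0.26 and -0.20 for Cml2. The lowest RE value of Cml2, 107 FPKM, was in RE ZT16 liver 2, which stood apart, and the other RE livers lay at 314 FPKM or above.

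Cml3 was barely present. It ran from 0.0258 to 0.510 FPKM in WT (median 0.261), from 0 to 0.157 in KO (median 0.0670) and from 0 to 0.193 in RE (median 0.0338), and was listed at 0 in 2 KO and 7 RE livers. It lay under the filter of a mean of 1 FPKM in any group, so 4 of the 5 members were tested. Nat8 passed that filter through WT groups only.

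Because Cml1 and Cml2 made up most of the family's RNA, the summed FPKM of the 5 genes changed far less than Nat8. The sum averaged 838 ± 56.5 FPKM (WT), 629 ± 80.7 (KO) and 640 ± 106 (RE; SD, n = 18 each). Nat8 made up 6.81% of it in WT, 0.108% in KO and 0.0988% in RE. Cml5 made up 5.86%, 0.630% and 0.906%. Cml2 made up 47.9%, 53.5% and 55.7%. The lower sum rests in part on the abundant members too. Cml1 averaged 328 FPKM (WT), 287 (KO) and 273 (RE), and Cml2 401, 337 and 360.

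**Figure D2:**
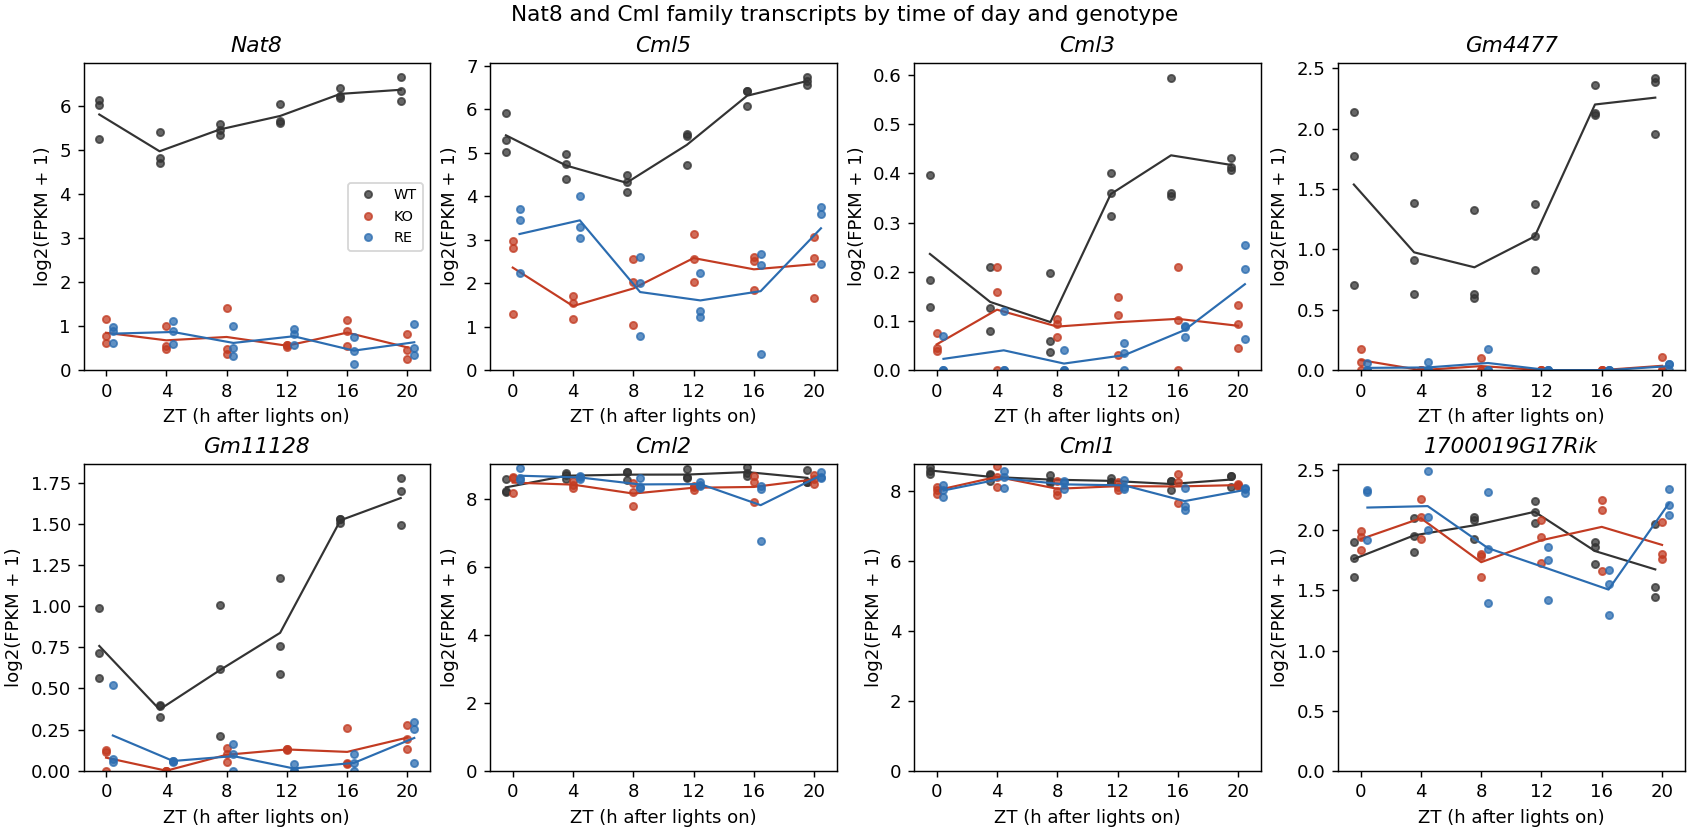
log2(FPKM + 1) of the family genes in every liver against zeitgeber time (h), 1 panel a gene with its own vertical axis; points are livers (slightly offset by genotype), lines join the means of 3 livers, and WT is dark grey, KO red and RE blue. Nat8 and Cml5 lie lower in KO and RE at every time, while the genotypes overlap in Cml1, Cml2 and 1700019G17Rik.

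The relatives were not used for the choice of the 5 genes. Gm4477 ran from 0.514 to 4.36 FPKM in WT (median 1.6) and was listed at 0 in 14 of 18 KO and 13 of 18 RE livers, with no KO value above 0.132 and no RE value above 0.131. The log2(FPKM + 1) difference was -1.46 in KO and -1.47 in RE (SE 0.08). Gm11128 ran from 0.156 to 2.43 FPKM in WT (median 0.840), 0 to 0.213 in KO and 0 to 0.435 in RE. The difference was -0.86 in both (SE 0.05), with some overlap between its lowest WT livers and the highest KO and RE livers. Both passed the filter through WT groups only, so a difference was built into their selection and no p is given for it. Its size depends on the pseudocount: in KO it was -3.94 for Gm4477 and -2.50 for Gm11128 with 0.1, and -0.48 and -0.25 with 5. 1700019G17Rik was not called, with 1.72 to 3.74 FPKM in WT, 2.05 to 3.79 in KO and 1.46 to 4.64 in RE. Its differences were 0.03 in KO (limma adjusted p 0.781) and 0.04 in RE (adjusted p 0.673). Over all tested genes 42.3% were called in KO against WT (20.2% lower) and 45.9% in RE against WT (21.7% lower). Nat8l, a brain relative on chromosome 5, was at most 0.0487 FPKM in every library.

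Reads can be split wrongly among near-identical genes. In GENCODE M21 transcripts, 5.68% of the 50-base runs of Nat8 also occur in Cml1 and 9.28% of those of Cml5 occur in Gm11128, while none are shared by Nat8 and Cml5. In Cml2 17.9% of runs also occur in 1700019G17Rik. In Gm4477 79.5% of runs occur in Cml3 and 47.5% in Gm11128, so the values of Gm4477, Gm11128 and Cml3 are uncertain relative to each other.

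In WT livers Nat8 and Cml5 followed the time of day. Nat8 read 27.2, 41.5 and 25 FPKM in the 3 livers at ZT4, and 99.8, 80.5 and 68.4 at ZT20. The means of 3 livers were 57.1 ± 17.2 at ZT0, 31.3 ± 8.96 at ZT4, 43.5 ± 3.9 at ZT8, 54.4 ± 9.38 at ZT12, 76.9 ± 6.36 at ZT16 and 82.9 ± 15.8 at ZT20 (SD). Every liver at ZT16 and ZT20 lay above every liver at ZT4, ZT8 and ZT12. A 24 h rhythm was called in limma's F test, with an amplitude from mean to peak of 0.64 (log2, SE 0.10), a peak at ZT17.7 and an adjusted p of 1.35e-05. Cml5 read 21.5, 19.2 and 16.1 FPKM at ZT8 and 92.7, 106 and 99.8 at ZT20, and every ZT20 liver lay above every liver of the other times. Its amplitude was 1.16 (SE 0.20), its peak ZT18.7 and its adjusted p 1.047e-04. Both calls held at other settings, but p depended on them. With a pseudocount of 0.1 the adjusted p was 0.0233 for Nat8 and 0.00338 for Cml5, and with 5 it was 7.106e-10 and 1.109e-08. With WT livers fitted alone it was 1.223e-04 and 4.358e-07. Cml1 (0.15, adjusted p 0.172) and Cml2 (0.16, adjusted p 0.349) were not called. A WT rhythm was called for 2 of 4 tested members, against 34.8% of all tested genes.

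Among the relatives in WT, Gm4477 (amplitude 0.78, peak ZT18.9, adjusted p 2.916e-09) and Gm11128 (0.64, ZT17.7, adjusted p 2.989e-11) also had called rhythms, with fitted peaks near those of Nat8 and Cml5. Gm11128 averaged 1 FPKM or more at ZT16 (1.87) and ZT20 (2.17) only, so the filter itself favoured a night peak. Fitted without the filter, its limma adjusted p was 2.562e-11. These fits share 1 spread per gene over all genotypes, and both genes lie near 0 in KO and RE, which lowers that spread. With WT livers fitted alone, the limma adjusted p was weaker, at 3.829e-04 for Gm4477 and 2.043e-05 for Gm11128. 1700019G17Rik peaked at ZT9.32 (0.22, adjusted p 0.0355), a call that was lost without the filter (adjusted p 0.0589), without the 2 libraries that stood apart (adjusted p 0.0787) and without any 1 of 8 WT livers (ZT0 livers 0 and 1, ZT8 livers 0 and 2, ZT12 livers 0 and 1, and ZT20 livers 0 and 1; adjusted p up to 0.117). Cml3, fitted without the filter after the data were seen, had a WT peak at ZT17.2 (0.18, adjusted p 2.676e-06 over 18727 genes) and at ZT17.3 with a pseudocount of 0.1 (adjusted p 1.893e-04).

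No member had a called rhythm in KO livers. Nat8 had an amplitude of 0.03 (limma adjusted p 0.985), Cml1 0.05 (adjusted p 0.899), Cml2 0.16 (adjusted p 0.637) and Cml5 0.42 (adjusted p 0.551), and none of the 4 had an unadjusted p under 0.05. Only 4 of 10932 genes were called in KO (0.0366%; 1301 at an unadjusted p under 0.05). Cml5 means in KO ran between 1.81 FPKM at ZT4 and 5.27 at ZT12 and the livers of all times between 1.05 and 7.80. At values under 1 FPKM, a pseudocount of 1 flattens the amplitude of Nat8 in KO and RE.

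In RE livers Cml5 cycled at its low level, with a fitted peak close to lights on. It read 12.0, 10.0 and 3.69 FPKM at ZT0, 15.0, 8.73 and 7.28 at ZT4, 5.06, 0.713 and 3.03 at ZT8, 1.33, 3.70 and 1.56 at ZT12, 4.32, 5.35 and 0.292 at ZT16, and 12.5, 4.40 and 11.1 at ZT20. The group means from ZT20 to ZT4 were 8.57 FPKM or more and those from ZT8 to ZT16 were 3.32 or less, with overlap between single livers. The amplitude was 1.03 (log2, SE 0.20), the peak ZT0.178 and the adjusted p 4.406e-04. Without the 2 libraries that stood apart it was 0.92, with a peak at ZT23.3 (adjusted p 6.266e-04). At ZT16, where WT Cml5 averaged 78.8 FPKM, RE averaged 3.32, a ratio of 23.7, and at ZT4 the ratio was 2.46.

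The abundant members had small called rhythms in RE as well. Cml1 had an amplitude of 0.24 with a peak at ZT5.45 (adjusted p 0.00993) and Cml2 of 0.31 with a peak at ZT2.08 (adjusted p 0.0196). With array weights neither was called (Cml1 0.12, adjusted p 0.147; Cml2 0.18, adjusted p 0.0601), and Cml2 was not called with RE livers fitted alone (adjusted p 0.133). The call for Cml2 was also lost without RE ZT16 liver 2 (0.17, adjusted p 0.0622) or without RE ZT0 liver 0 (0.28, adjusted p 0.0519). Nat8 was not called in RE (0.15, adjusted p 0.402). Of 4 tested members 3 were called in RE, against 46.8% of all tested genes. Among the relatives, 1700019G17Rik cycled in RE (0.36, ZT1.00, adjusted p 3.937e-04), and Gm4477 (adjusted p 0.987) and Gm11128 (adjusted p 0.330) were not called.

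**Figure D3:**
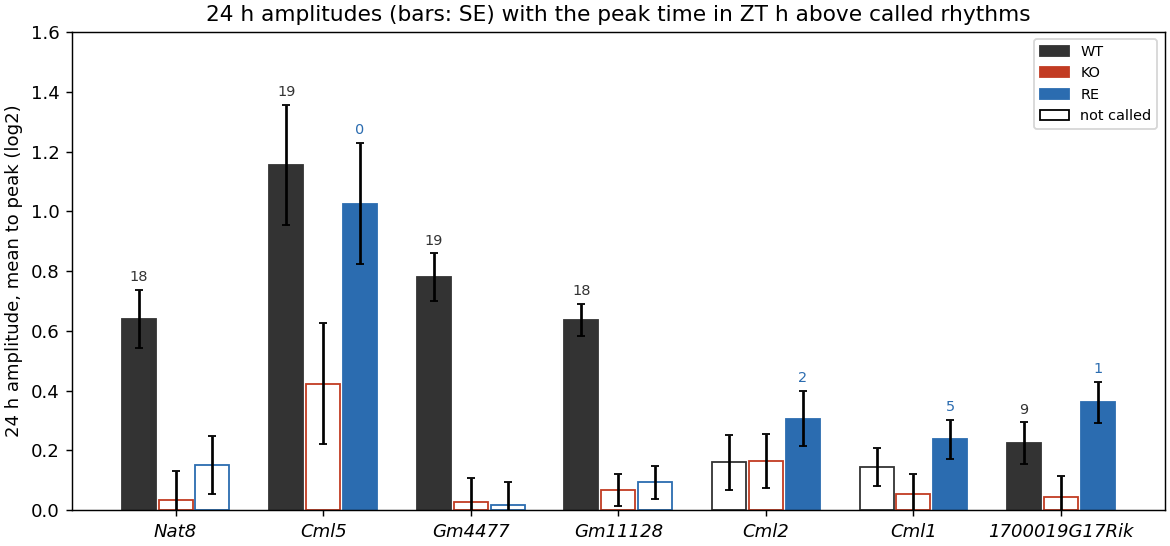
Amplitude of the 24 h rhythm (bars; log2, mean to peak) of each tested family gene in WT (dark grey), KO (red) and RE (blue), with SE as error bars; filled bars are called at an adjusted p under 0.05 and carry the peak time in ZT h. Cml5 stands at 1.16 in WT and 1.03 in RE, and Nat8 at 0.64 in WT and 0.15 in RE.

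The differences between rhythms were tested directly, as the length of the difference between the fitted 24 h waves (log2). Between WT and KO the difference was 0.66 for Nat8 (SE 0.14, adjusted p 0.00412) and was not called with a pseudocount of 0.1 (0.69, adjusted p 0.216). Nat8 passed the filter through WT groups only and lies near 0 on this scale in KO, so most of that difference is its WT amplitude. The same holds for Gm4477 (0.77) and Gm11128 (0.57), which are given with no p. For Cml5 it was 0.80 and missed the threshold (adjusted p 0.154), although it was called with a pseudocount of 5 (0.87, adjusted p 8.7e-04) and when WT and KO were fitted alone (adjusted p 0.0429). Cml1 (0.11, adjusted p 0.712) and Cml2 (0.30, adjusted p 0.264) were not called. Cml2 was called with array weights (0.35, adjusted p 0.0054) and without RE ZT16 liver 2 (adjusted p 0.0449). So Nat8 was the only 1 of 4 tested members called in the main fit, against 9.06% of all tested genes. Its call mostly restates its WT amplitude, so nothing more is read from it or from this count.

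Between WT and RE the difference was called for Nat8 (0.77, adjusted p 5.139e-04), Cml5 (1.45, adjusted p 0.00163) and Cml2 (0.45, adjusted p 0.0394), 3 of 4 tested members against 14.1% of all tested genes. Cml1 was not called (0.20, adjusted p 0.260). Nat8 passed the filter through WT groups only and averaged under 1 FPKM in every RE group. Most of its difference is therefore its WT amplitude (0.64), and nothing more is read from its call or from the count of 3 members. The call for Cml2 was lost without the filter (adjusted p 0.0675) and with WT and RE fitted alone (adjusted p 0.0572). Without the 2 libraries that stood apart the difference was 0.31 and was not called (adjusted p 0.0515). The call was also lost when any 1 of 14 libraries was left out, with adjusted p from 0.051 to 0.0772. These were WT ZT0 livers 0 and 1, WT ZT4 livers 0 and 2, WT ZT12 livers 0 and 1, WT ZT16 livers 0 and 1, RE ZT0 liver 0, all 3 livers of RE ZT4, and RE ZT12 livers 0 and 2.

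Between RE and KO, which both lack Bmal1 in the liver by design, Cml5 was the only member called (1.23, SE 0.29, adjusted p 0.0292), against 3.07% of all tested genes. The call was lost with RE and KO fitted alone (adjusted p 0.138), without the filter (adjusted p 0.0548) and without any 1 of 8 libraries, with adjusted p up to 0.0692. These were KO ZT0 liver 1, KO ZT4 liver 1, KO ZT12 liver 1, KO ZT16 liver 1, RE ZT0 liver 0, RE ZT4 liver 0, and RE ZT12 livers 0 and 2. Nat8 (0.12, adjusted p 0.804), Cml1 (0.18, adjusted p 0.343) and Cml2 (0.29, adjusted p 0.285) were not called.

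The mean level over the day was also compared between RE and KO, a contrast that the choice of genes did not use. None of the 4 tested members was called in limma (Nat8 -0.01, adjusted p 0.987; Cml1 -0.08, adjusted p 0.638; Cml2 0.06, adjusted p 0.822; Cml5 0.33 with SE 0.20, adjusted p 0.480). Over all genes 0.192% were called (21 genes, 0.0732% higher and 0.119% lower in RE; 1451 at an unadjusted p under 0.05).

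Nat8 and Cml5 were also set against each other over the livers of each genotype, as a description with no p, since livers share their times of day and both genes cycled in WT. Pearson's r of log2(FPKM + 1) over the 18 WT livers was 0.83 (Spearman's rho 0.83), and 0.86 without the 2 livers farthest from the median of Nat8. Within times it was 0.53. In KO r was 0.21 (rho 0.17) and in RE 0.33 (rho 0.24). Over the 18 group means, with the mean of each genotype removed, Nat8 correlated at 0.82 with Gm4477, 0.85 with Gm11128 and 0.65 with Cml5, but at -0.02 with Cml1 and 0.16 with Cml2. In KO and RE the fitted amplitudes of Nat8, Gm4477 and Gm11128 were at most 0.15 (log2). The r values among them therefore rest mainly on the WT groups and restate their shared time course there. All of these values describe groups that share their genotypes and times, and no p is given.

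**Figure D4:**
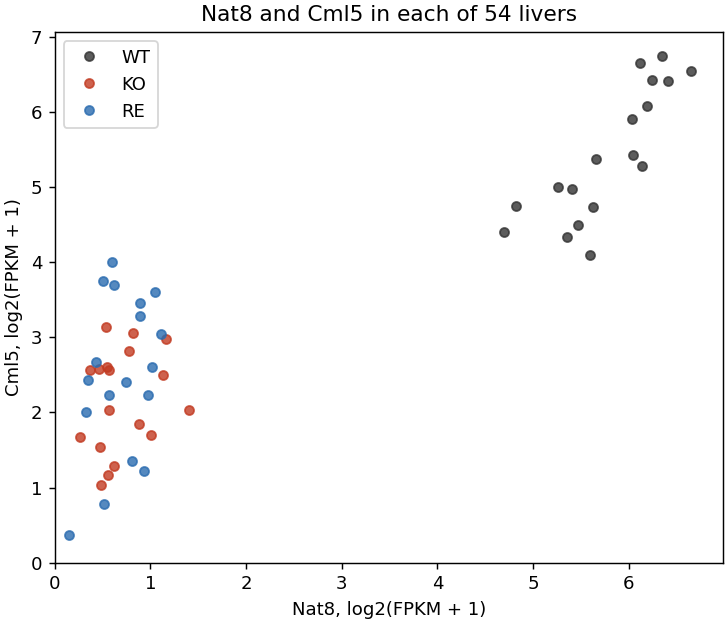
Cml5 (vertical axis) against Nat8 (horizontal axis), both as log2(FPKM + 1), in each of 54 livers; WT is dark grey, KO red and RE blue. WT livers rise together at the upper right (r = 0.83), apart from the KO and RE livers at the left.

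Outside the family, the genes of most similar pattern over the 18 group means were named by Pearson's r. For Nat8 these were Mme, which encodes the peptidase neprilysin (0.99), Serpine2 (0.98) and Gpc1 (0.98). Mme averaged 8.19 FPKM (WT), 0.278 (KO) and 0.237 (RE). Serpine2 averaged 5.903, 0.381 and 0.378 FPKM, and Gpc1 averaged 4.265, 0.196 and 0.210. These genes were high in WT only, so their r mostly repeats the level contrast that chose Nat8. For Cml5 they were the bile acid transporter Slc10a2 (0.96), Mme (0.94) and Ppp1r1b (0.93). The same limit holds there, with Slc10a2 at 9.755 FPKM in WT and 1.572 in KO, and Ppp1r1b at 3.984 and 0.440. With the genotype means removed, Nat8 had a correlation of 0.83 with Mme and 0.83 with Rhobtb1. Cml5 was then closest to Bpnt1 (0.92), Tmem14c (0.88) and Tmem150a (0.86). Cml1 was most like Vamp5 (0.87), Oard1 (0.85) and Btbd6 (0.85), and Cml2 most like Slc22a7 (0.86), Ttc39c (0.86) and Rabggta (0.83).

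Differences among the genes around the cluster were small. Of the 16 nearest protein-coding genes with a row (8 on each side), 9 were tested and 4 were called in KO against WT, near the 42.3% of all tested genes. Cct7 (0.16), Fam136a (0.17) and Pradc1 (0.21) were higher and Dusp11 (-0.19) was lower. In RE 5 were called, 4 higher and 1 lower, against 45.9% of all tested genes. The median difference of the 9 was 0.09 in KO and 0.08 in RE, against 0.00 and 0.01 over all tested genes. Tprkb (chr6:85911860-85930284) overlaps Cml1 at the end of the cluster and fell outside the rule for neighbours. Whether reads of 1 of these genes were counted to the other was not tested. Tprkb averaged 78.8 FPKM (WT), 67.1 (KO) and 64.9 (RE). Its level differences were called in limma (KO -0.22, adjusted p 5.444e-04, and RE -0.28, adjusted p 2.493e-05).

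Genes that act before and beside Nat8 in the mercapturate pathway were read from lists. Glutathione S-transferases, which attach glutathione to foreign compounds, had 19 of 22 tested genes called in KO against WT, 10 higher and 9 lower, with a median of -0.04, where 42.3% of all tested genes were called (22.1% higher and 20.2% lower). Gstm2 (92.7 FPKM in WT, 533.5 in KO) was higher by 2.52 (limma adjusted p 1.319e-24), Gstm3 by 2.68 (adjusted p 5.764e-21) and Gstm6 by 1.6 (adjusted p 1.196e-23); members of the Gstm family share sequence. The list for processing the conjugates also holds the transporters Abcc2 and Slc17a5, so not all of its genes act on conjugates. Of its 10 tested genes, 8 were called, 7 of them lower, with a median of -0.18. Over all tested genes the share was the same 42.3% (20.2% lower), with a median of 0.00. Ccbl2, a cysteine conjugate beta-lyase that also acts on cysteine S-conjugates, fell by 1.40 (85.7 to 34.2 FPKM, adjusted p 9.838e-10) and Ccbl1 fell by 0.49 (adjusted p 1.542e-05). Lap3, a leucine aminopeptidase, rose by 0.17 (adjusted p 1.088e-04). The deacylases Acy1 (-0.17, adjusted p 0.0131) and Acy3 (-0.19, adjusted p 0.0202), which remove the acetyl group, were slightly lower. Ggt1 and Dpep1, which trim the glutathione conjugate, averaged under 1 FPKM in every genotype and were not tested.

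Glutathione synthesis and turnover had 6 of 11 tested genes called in KO against WT, 4 higher and 2 lower, a share near the 42.3% of all tested genes. Cbs, which makes cystathionine on the way to cysteine, rose by 0.92 (adjusted p 7.229e-15), Ggct by 0.90 (adjusted p 2.162e-12), and Oplah fell by 0.42 (adjusted p 1.496e-08). Of 8 genes listed for acetyl-CoA supply and acetylation, not all of them of the endoplasmic reticulum, 1 was called (against 42.3%). It was Crat, which fell by 0.89 (adjusted p 2.605e-07). Slc33a1 was -0.05 (adjusted p 0.620). Among 24 other N-acyltransferases 8 were called (against 42.3%), 2 higher and 6 lower, with a median of 0.00, among them Nat10 (0.46, adjusted p 1.724e-11), Keg1 (-0.56, adjusted p 5.559e-06) and Glyat (-0.32, adjusted p 2.539e-07), the glycine conjugation enzyme. No gene of these 5 lists was called between RE and KO in level (limma), where 0.192% of all tested genes were (21, and 1451 at an unadjusted p under 0.05).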

How the data were processed

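Whole-liver RNA sequencing of 54 livers in 18 groups was used. The authors deposited 1 table of FPKM per gene symbol (24346 rows); TopHat and mm10 are named in the submitters' processing notes. Which tool and annotation made the values is not given in the sources used here. No counts were used and the depth is unknown, so precision rests on the spread between livers, which may be partly technical. Columns were assigned to groups by genotype and time; livers are named by column number (0, 1 or 2), and 0 columns were left without a group.

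Values were analysed as log2(FPKM + 1). Tested were genes that averaged 1 FPKM or more in any group (10932; 13414 did not). The 18 group means were fitted with limma 3.58.1 in R 4.3.3 (eBayes with trend, 36 residual degrees of freedom). Rhythms were tested with the F test of cosine and sine contrasts (24 h), levels by two-sided contrasts over the 6 times, and p was adjusted by Benjamini and Hochberg over all tested genes, with calls under 0.05. The steps were tested on simulated data.

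Named were the 5 members, every family row, 8 neighbours a side, up to 3 genes a list by adjusted p (with Slc33a1, Ggt1, Dpep1, Acy1 and Acy3 always) and the 3 most similar genes per tested member that averaged 5 FPKM or more in some group. A gene that this rule selects is not reported here. Members and lists were chosen with earlier results of these data known. Promoter windows come from RefSeq (GRCm38.p6). Alternatives were 2 other pseudocounts, 2 other filters, median scaling, genotypes fitted alone, no trend, array weights and leaving out each library. Added after seeing the data were the fit without 2 libraries and the fits of Cml3 without the filter.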

Additional observations from a re-analysis of the deposited data

Results flagged for a closer look

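Rhythms that differed between genotypes in a test of the difference itself are listed with the length of the difference (log2, mean to peak). Between WT and KO this was 0.66 for Nat8. Between WT and RE it was 0.77 for Nat8, 1.45 for Cml5 and 0.45 for Cml2. Between RE and KO it was 1.23 for Cml5. The calls for Nat8, for Cml2 and for Cml5 between RE and KO carry the limits given above. The groups of 3 livers are too small for a test of single outlying livers.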

How the results depend on the processing

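No paired analysis was possible because the table's columns do not carry the replicate numbers of the sample titles, so the replicate block was not run. Depth is unknown and limits what can be said of genes under 1 FPKM. Scaling every library to the same median and dropping the trend changed no call of a named family gene. With a pseudocount of 0.1 no member was called between WT and KO in rhythm. With a pseudocount of 5, or with WT and KO alone, Nat8 and Cml5 were called. With array weights Nat8 and Cml2 were called (limma adjusted p 0.0054 for Cml2), and Cml5 was not (adjusted p 0.0608). The fall of Nat8 was -6.30 in KO and -6.32 in RE at 0.1 and -3.39 and -3.40 at 5, and that of Cml5 -2.45 and -2.21 at 5. Without the filter 191 genes and 0 members were called between RE and KO in rhythm, and with RE and KO alone 2 genes and 0 members. At a filter of 5 FPKM 0 relatives were called in level against WT in KO and in RE, since they lie below it. With genotypes alone, 4 members (Cml1 adjusted p 0.0240, Cml2 0.0417) and 5193 genes were called in WT rhythm, 0 genes in KO rhythm, 3145 in RE rhythm and 0 in level between RE and KO. Array weights gave 6260 genes in WT rhythm, 824 in KO, 2665 between WT and KO, 3241 between WT and RE, 1740 between RE and KO and 575 in level between RE and KO, and 1 member in RE rhythm. Without the 2 libraries that stood apart 82 genes were called in level between RE and KO. The cause was not tested. The level of RE against KO, near 0, turned sign for Gm11128 (-0.056 at a pseudocount of 0.1, -0.006 with array weights) and for Nat8 (0.018 without those 2 libraries).

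Leaving out 1 library at a time gave 13 to 172 genes in level between RE and KO, 145 to 686 genes and 0 to 1 members in RE against KO rhythm, 0 to 161 genes in KO rhythm, 1 to 2 members between WT and KO, 2 to 3 members between WT and RE and 2 to 3 in RE rhythm. The RE against KO level ran from -0.041 to 0.047 for Nat8, -0.013 to 0.005 for Gm4477, -0.025 to 0.014 for Gm11128 and -0.028 to 0.049 for 1700019G17Rik. The WT rhythms of Nat8 and Cml5 and the RE rhythm of Cml5 were called in all 54 of these fits.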
